A study of Mus musculus with 8 samples.

Results

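The genes examined here encode 9 enzymes of serine synthesis and folate one-carbon metabolism. They were chosen by their place in these pathways, with measured differences between the genotypes and treatments of these libraries already known. They are Phgdh, Psat1, Psph, Shmt1, Shmt2, Mthfd1, Mthfd1l, Mthfd2 and Aldh1l2, taken by symbol from a count table of 55376 genes. Messenger RNA was sequenced from macrophages that had been grown from mouse bone marrow with M-CSF at 50 ng/mL. The marrow came from male mice aged 13 weeks, 3 per genotype, which carried the genotype label DNMT3A-HET (HET) or were wild type (WT). The tested cultures received IL-6 at 10 ng/mL from day 6 for 2 days, the controls received none, and RNA was collected on day 8. The groups were HET with IL-6, HET control, WT with IL-6 and WT control, each with 2 libraries numbered 1 and 2. All groups shared M-CSF and the marrow origin. The labels do not state which DNMT3A allele or driver HET carries, whether it lowers DNMT3A, or which mouse gave which library. The p-values below rest on how far the 2 libraries of a group lie apart, a spread that could be technical. It was pooled over the 4 groups, and each gene's spread was drawn towards that of other genes. The comparisons address how macrophages of the 2 genotype labels respond to IL-6, an inflammatory cytokine.

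Serine is made from a glycolytic intermediate in 3 steps, catalysed by PHGDH, PSAT1 and PSPH. SHMT enzymes pass a carbon of serine to tetrahydrofolate, SHMT2 in mitochondria and SHMT1 in the cytosol. In mitochondria the carbon is oxidised by MTHFD2 and released as formate by MTHFD1L, or burnt to carbon dioxide by ALDH1L2. In the cytosol MTHFD1 takes up formate for the synthesis of purines and thymidylate. Transcription of several of these genes is known to be driven by ATF4, the factor of the amino acid stress response. In macrophages serine synthesis is known to feed glutathione and methyl donors during inflammatory activation.

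Total counts per library ran from 18926641 to 24881197 in 7 libraries and reached 50137897 in HET IL-6 number 2. Dnmt3a, the gene of the genotype label, was at 140.1 and 213 CPM (counts scaled to library size) in HET IL-6 numbers 1 and 2, 166 and 248 CPM in HET control, 175 and 183 CPM in WT IL-6, and 275 and 244 CPM in WT control. HET and WT overlapped in each treatment, with log2 fold changes of HET over WT of -0.02 ± 0.25 (SE) after IL-6 and -0.32 ± 0.25 in control (edgeR adjusted p = 0.972 and 0.506), so these counts do not separate the libraries labelled HET from those labelled WT. All 7 macrophage markers listed passed the filter on low counts, and their sum was 11175 to 13501 CPM per library. Lists of neutrophil, dendritic, B, T and NK, and erythroid genes each summed to at most 2.58 CPM, with Cd3e, Ncr1 and Pax5 at 0 in every library. Stromal genes summed to 5.93 and 2.90 CPM in HET IL-6, 2.71 and 1.26 CPM in HET control, 11.2 and 5.57 CPM in WT IL-6, and 3.15 and 9.0 CPM in WT control, with Lum at 0 throughout. In such bulk RNA, fewer cells of a type and less RNA per cell cannot be told apart.

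All 9 enzyme genes passed the filter, with 32 to 7500 counts in a library. After IL-6, 5 of them were higher in HET than in WT, where 13.2% of all tested genes were higher. In 4 of those 5, IL-6 moved the gene in opposite directions in the genotypes. Those 4 were Phgdh, Psph, Shmt2 and Aldh1l2, which were lower with IL-6 in WT and higher with IL-6 in HET. Of all tested genes, 0.554% were called in this way. The fifth, Mthfd2, was higher with IL-6 in HET and was not called in WT. The genes were picked with results of these data known, so the calls given here describe them within a fit over all 13721 tested genes and give no independent support.

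Upstream sequences are printed for 3 genes whose response differed between the genotypes, so that the letters before their start can be read beside their values. Each is the 250 bases before the annotated start, 5′ to 3′ on the gene's strand, from RefSeq on GRCm38.p6. Capitals mark CCAAT on either strand, the letters of the CCAAT box. The regions are chr3:98339970-98340219 (minus strand) for Phgdh, chr10:127522445-127522694 (minus strand) for Shmt2 and chr6:83317605-83317854 (minus strand) for Mthfd2. The Mthfd2 region lies inside the span of the counted gene, 83305691 to 83325908, so its start is an internal one.
Phgdh: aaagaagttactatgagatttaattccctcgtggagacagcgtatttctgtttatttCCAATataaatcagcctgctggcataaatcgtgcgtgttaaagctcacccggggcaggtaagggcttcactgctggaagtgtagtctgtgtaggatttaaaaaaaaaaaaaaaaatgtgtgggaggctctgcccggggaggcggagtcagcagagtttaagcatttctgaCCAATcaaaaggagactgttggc
Shmt2: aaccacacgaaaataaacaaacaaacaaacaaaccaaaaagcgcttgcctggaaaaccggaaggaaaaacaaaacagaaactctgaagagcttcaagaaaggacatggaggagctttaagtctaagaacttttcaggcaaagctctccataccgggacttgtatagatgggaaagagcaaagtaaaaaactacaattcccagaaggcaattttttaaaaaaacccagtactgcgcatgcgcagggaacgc
Mthfd2: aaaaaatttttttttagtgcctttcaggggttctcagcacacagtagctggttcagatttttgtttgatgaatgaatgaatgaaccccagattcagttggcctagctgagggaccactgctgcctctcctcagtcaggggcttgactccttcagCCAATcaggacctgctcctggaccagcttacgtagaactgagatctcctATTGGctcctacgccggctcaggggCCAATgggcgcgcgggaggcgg
A window from 250 bases before to 50 bases after the start was on record for 8 of the 9 genes, all but Aldh1l2. Psat1 had 2 windows on record, both inside the span of the counted gene. Only the first was counted here, and the second held none of the 4 motifs searched. CCAAT, searched on both strands, was in 6 of the 8 windows counted (Phgdh, Psat1, Psph, Shmt1, Mthfd1 and Mthfd2). It was in 37.4% of all 32851 windows, which include second windows of a gene. TGACGT, the core of the CRE site, was in 2 (Psph and Mthfd1l) against 7.51% of all windows. TGATGNAA, a form of the site bound by ATF4 with C/EBP factors, was in 0 of 8 against 3.97%, and CACGTG, the E-box, in 0 of 8 against 7.15%. TGACGT and CACGTG can share the letters ACGT, but no matches of the 8 genes coincided, and Shmt2 held none of the 4 motifs in this window.

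Phgdh (chromosome 3, 98313170 to 98339990, mm10) encodes the enzyme of the first step of serine synthesis. It was at 57.0 and 49.8 CPM in HET IL-6 numbers 1 and 2, 18.8 and 21.6 CPM in HET control, 8.85 and 13.6 CPM in WT IL-6, and 52.0 and 29.3 CPM in WT control. With IL-6 both HET libraries were above both HET controls and both WT libraries were below both WT controls. HET IL-6 and WT control overlapped. By edgeR the log2 fold change of IL-6 over control was 1.40 ± 0.30 in HET (adjusted p = 0.0238) and -1.88 ± 0.33 in WT (adjusted p = 0.0108). The HET call was lost without either HET control library (adjusted p = 0.150 without number 1 and 0.0958 without number 2) or either HET IL-6 library (0.0939 and 0.0704), and the WT call without WT IL-6 number 1 (0.114). Phgdh has 15 near-identical copies in the genome, at least 90% identical over at least 1000 bases, and the 14 in the table together held at most 11 counts in a library. In no library did they reach more than 0.969% of the count of Phgdh there. These copy counts do not show how reads that match both Phgdh and a copy were counted.

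Psat1 (chromosome 19, 15904678 to 15947337) encodes the aminotransferase of the second step. It was at 92.6 and 89.6 CPM in HET IL-6, 97.8 and 88.3 CPM in HET control, 77.6 and 77.7 CPM in WT IL-6, and 109 and 91.7 CPM in WT control. The HET groups overlapped, and both WT IL-6 libraries were the lowest of the 8. Psat1 was at -0.03 ± 0.09 with IL-6 in HET (edgeR adjusted p = 0.866), and IL-6 lowered it, at -0.37 ± 0.09 in WT (adjusted p = 0.0123). That WT call was lost without WT control number 1 (0.101) or WT IL-6 number 1 (0.0539).

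Psph (chromosome 5, 129765558 to 129787449) encodes the phosphatase of the last step. It was at 25.7 and 25.3 CPM in HET IL-6, 16.5 and 14.8 CPM in HET control, 12.5 and 11.7 CPM in WT IL-6, and 21.9 and 17.2 CPM in WT control. No groups overlapped, in the order HET IL-6, WT control, HET control, WT IL-6. The log2 fold change with IL-6 was 0.70 ± 0.12 in HET (edgeR adjusted p = 9.00e-04) and -0.70 ± 0.13 in WT (adjusted p = 0.00147). Cct6a, on the other strand, overlaps 10.4% of its exon bases, and the strand setting of the counting is not given in the sources used here, so the count of Psph is uncertain. That share is one of exon bases and sets no bound on the reads.

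Shmt2 (chromosome 10, 127517123 to 127522444) encodes the mitochondrial serine hydroxymethyltransferase. It was at 131 and 138 CPM in HET IL-6, 78.8 and 87.0 CPM in HET control, 60.6 and 60.4 CPM in WT IL-6, and 102 and 88.7 CPM in WT control. No groups overlapped, and their order was that of Psph. IL-6 raised it by 0.69 ± 0.09 in HET (edgeR adjusted p = 7.26e-05) and lowered it, at -0.66 ± 0.09 in WT (adjusted p = 1.43e-04). Shmt1 (chromosome 11, 60788104 to 60811718), its cytosolic counterpart, was at 12.2 and 11.9 CPM in HET IL-6, 13.8 and 14.9 CPM in HET control, 12.5 and 13.5 CPM in WT IL-6, and 12.7 and 11.5 CPM in WT control. It was not called, at -0.25 ± 0.11 in HET (edgeR adjusted p = 0.143) and 0.10 ± 0.12 in WT (adjusted p = 0.616).

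Mthfd2 (chromosome 6, 83305691 to 83325908) encodes the mitochondrial dehydrogenase and cyclohydrolase. It was at 152 and 152 CPM in HET IL-6, 88.4 and 102 CPM in HET control, 94.7 and 106 CPM in WT IL-6, and 127 and 109 CPM in WT control. The HET IL-6 libraries were the highest, and HET control overlapped with WT IL-6. IL-6 raised it by 0.68 ± 0.10 in HET (edgeR adjusted p = 1.99e-04), and it was at -0.24 ± 0.10 in WT (adjusted p = 0.112).

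Mthfd1l (chromosome 10, 3973118 to 4167081), which encodes the mitochondrial formate-releasing enzyme, was at 33.3 and 33.3 CPM in HET IL-6, 31.5 and 30.8 CPM in HET control, 28.3 and 29.1 CPM in WT IL-6, and 30.0 and 25.4 CPM in WT control. It differed little with IL-6, by 0.10 ± 0.09 in HET and 0.05 ± 0.10 in WT (edgeR adjusted p = 0.550 and 0.782). Mthfd1 (chromosome 12, 76255298 to 76319803), which encodes the cytosolic trifunctional enzyme, was at 46.4 and 50.7 CPM in HET IL-6, 58.5 and 54.3 CPM in HET control, 46.1 and 47.1 CPM in WT IL-6, and 44.0 and 44.1 CPM in WT control. HET control was above the other groups, and the IL-6 groups overlapped. The change with IL-6 was -0.21 ± 0.08 in HET and 0.08 ± 0.09 in WT (edgeR adjusted p = 0.0987 and 0.580).

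Aldh1l2 (chromosome 10, 83487450 to 83534140), which encodes the mitochondrial formyltetrahydrofolate dehydrogenase, had the lowest level per length of the 9 genes in every group and the largest fold changes. It was at 9.57 and 7.64 CPM in HET IL-6, 1.79 and 2.72 CPM in HET control, 1.53 and 1.72 CPM in WT IL-6, and 9.0 and 5.83 CPM in WT control. HET IL-6 and WT control overlapped, and both stood above the other groups. IL-6 raised it by 1.91 ± 0.24 in HET (edgeR adjusted p = 6.83e-05) and lowered it, at -2.20 ± 0.27 in WT (adjusted p = 4.43e-05). D10Wsu102e overlaps 14.1% of its exon bases on the other strand, so its count is uncertain. D10Wsu102e was at 61.5 and 63.0 CPM in HET IL-6 and 79.2 and 72.3 CPM in HET control. In WT it was at 75.8 and 70.3 CPM with IL-6 and 60.7 and 76.4 CPM in control. Its difference in response was -0.38 ± 0.15 and was not called (edgeR adjusted p = 0.140). The count of D10Wsu102e is uncertain in the same way, and the part of overlapping reads in either count was not tested.

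**Figure D1:**
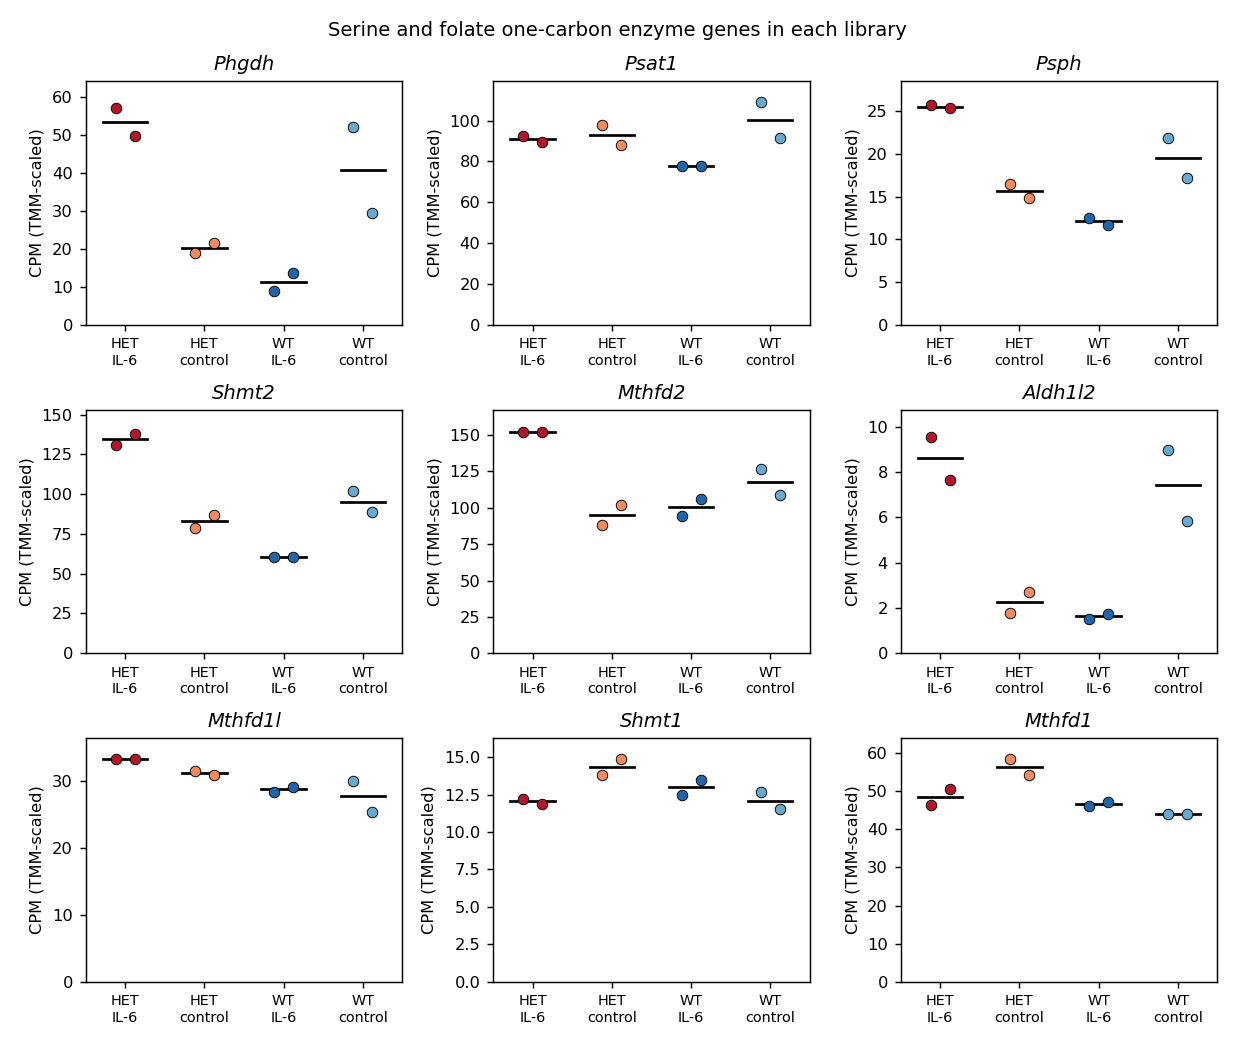
Scaled CPM (vertical axes, each from 0) of the 9 enzyme genes in the 4 groups. Each point is a library and each line the mean of 2. In Phgdh, Psph, Shmt2 and Aldh1l2 the groups HET IL-6 and WT control stand above HET control and WT IL-6. Shmt1, Mthfd1 and Mthfd1l vary less, and of these Shmt1 and Mthfd1 are highest in HET control.

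Of the 9 genes, IL-6 in HET raised 5 and lowered 0, where 18.3% of all tested genes were called, 8.87% higher and 9.41% lower. In WT it lowered 5 and raised 0, where 18.3% of tested genes were called, 10.4% lower and 7.91% higher. The median log2 fold change over the 9 was 0.68 in HET and -0.37 in WT, and over all tested genes 0.01 and -0.01. Being lower in WT and higher in HET, both called, held for 4 of the 9 genes and for 76 of 13721 genes, or 0.554%. The reverse held for 0 of the 9 and for 36 of all genes, or 0.262%.

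**Figure D2:**
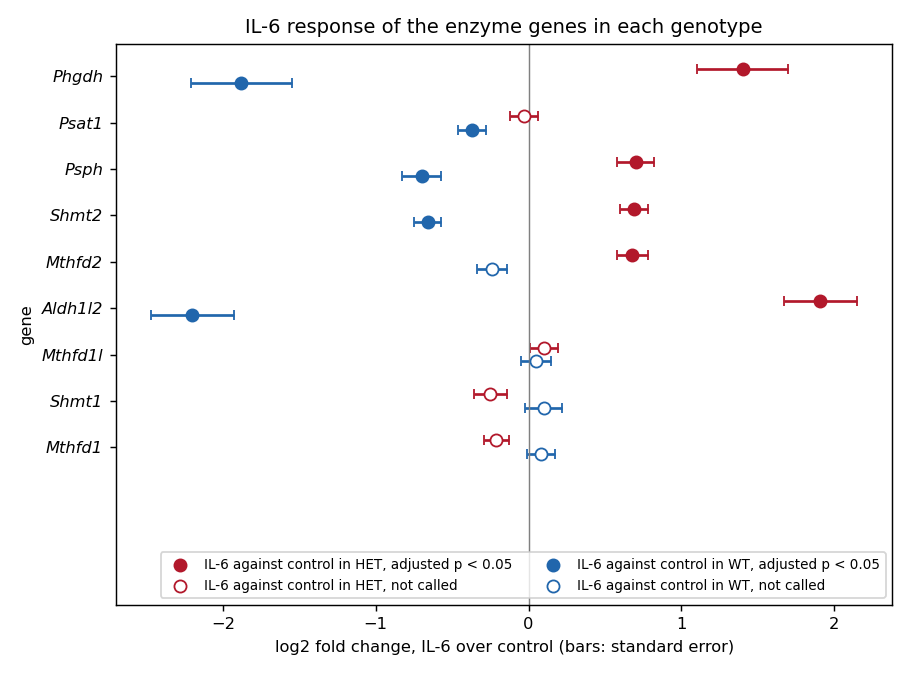
Log2 fold change of IL-6 over control (horizontal axis) of each enzyme gene in HET (red, upper of each pair) and WT (blue, lower), with bars for the standard error and filled points for an edgeR adjusted p under 0.05. For Phgdh, Psph, Shmt2 and Aldh1l2 the red point is filled right of 0 and the blue point filled left of it.

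**Figure D3:**
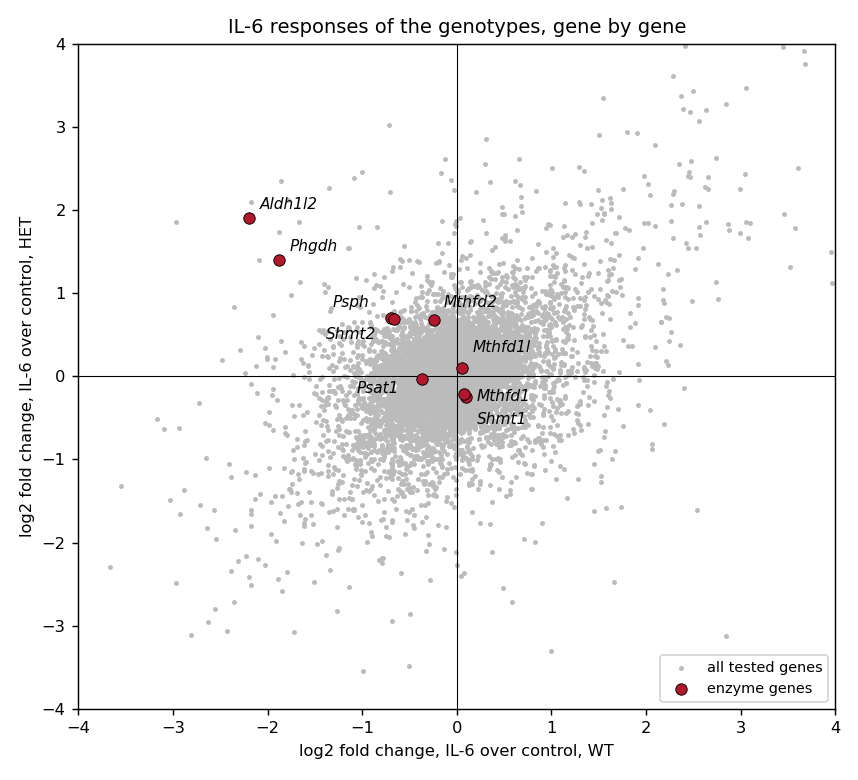
Log2 fold change with IL-6 in WT (horizontal) against that in HET (vertical) for all 13721 tested genes (grey) and the 9 enzyme genes (red); 17 genes lie outside the axes. The 4 genes called in opposite directions stand at the upper left, with Aldh1l2 at -2.20 and 1.91.

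The difference between the responses was tested as an interaction term, HET minus WT. It was 4.11 ± 0.36 for Aldh1l2 (edgeR adjusted p = 7.50e-05), 3.28 ± 0.44 for Phgdh (0.0106), 1.40 ± 0.18 for Psph (4.20e-04), 1.35 ± 0.13 for Shmt2 (9.13e-05) and 0.92 ± 0.14 for Mthfd2 (0.00129). Counted from the most positive difference down, Aldh1l2 ranked 7th, Phgdh 18th, Psph 201st, Shmt2 226th and Mthfd2 576th of the 13721 tested genes. For Psph, Shmt2, Mthfd2 and Aldh1l2 the call held without each library in turn, and for Phgdh it was lost without HET control number 1 (adjusted p = 0.0625) or WT IL-6 number 1 (0.0707). The count called was 5 of 9, all higher, where 8.12% of tested genes were called, 4.52% higher and 3.60% lower. The other 4 were not called, with Psat1 at 0.34 ± 0.13, Mthfd1l at 0.05 ± 0.14, Mthfd1 at -0.29 ± 0.12 and Shmt1 at -0.35 ± 0.16 (edgeR adjusted p = 0.136 to 0.882).

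HET and WT were also compared within each treatment. These comparisons share libraries with those above, such as the HET control libraries. After IL-6, Phgdh was higher in HET by a log2 fold change of 2.26 ± 0.32 (edgeR adjusted p = 0.00578), Aldh1l2 by 2.40 ± 0.26 (1.01e-04), Shmt2 by 1.15 ± 0.09 (2.79e-05), Psph by 1.07 ± 0.12 (1.44e-04) and Mthfd2 by 0.60 ± 0.10 (0.00102). The other 4 lay between -0.11 ± 0.11 (Shmt1) and 0.23 ± 0.09 (Psat1, adjusted p = 0.0913). Those 5 of 9, all higher, stood against 22.0% of tested genes called, 13.2% higher and 8.80% lower, and the call of Phgdh was lost without WT IL-6 number 1 (0.0893).

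In control cultures HET differed from WT in 2 of the 9 genes, where 4.85% of tested genes were called, 2.81% higher and 2.05% lower. Aldh1l2 was lower in HET, at -1.72 ± 0.25 (edgeR adjusted p = 0.00348) and Mthfd1 was higher by 0.36 ± 0.09 (adjusted p = 0.0322). Phgdh was at -1.01 ± 0.30 (0.132), Psph at -0.33 ± 0.12 (0.149), Mthfd2 at -0.32 ± 0.10 (0.0769) and Shmt2 at -0.20 ± 0.09 (0.212), none of them called. Without HET control number 1 the count was 0 of 9, with Aldh1l2 at adjusted p = 0.0566 and Mthfd1 at 0.329. Without WT control number 2 it was 4 of 9. Over all genes, the calls in this comparison also moved, from 33 to 1304 with 1 library left out, against 666 as designed. The call of Mthfd1 was also lost without HET control number 2 (0.0935), HET IL-6 number 1 (0.0610) or number 2 (0.0616), or WT control number 2 (0.0653).

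Between genes, levels can be compared as CPM per kb of exon. In HET IL-6 the mean level was 43.6 CPM per kb for Mthfd2, 43.1 for Shmt2, 21.5 for Phgdh, 21.4 for Psat1, 10.9 for Mthfd1, 7.52 for Mthfd1l, 5.89 for Psph, 3.10 for Shmt1 and 1.15 for Aldh1l2. In WT IL-6 Phgdh was at 4.52 CPM per kb, below Mthfd1l at 6.47. Summed over the 9 genes, the level was 559 and 558 CPM in HET IL-6, 406 and 416 CPM in HET control, 343 and 361 CPM in WT IL-6, and 508 and 423 CPM in WT control.

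Within a library, the ratio of the mitochondrial to the cytosolic enzyme gene does not depend on the scaling between libraries. The level per kb of Shmt2 over that of Shmt1 was 13.4 and 14.5 in HET IL-6, 7.14 and 7.29 in HET control, 6.04 and 5.59 in WT IL-6, and 9.99 and 9.65 in WT control. For Mthfd2 over Mthfd1 it was 4.18 and 3.82 in HET IL-6, 1.92 and 2.39 in HET control, 2.62 and 2.87 in WT IL-6, and 3.68 and 3.16 in WT control. With IL-6 both ratios were higher in each HET library and lower in each WT library than in the controls of that genotype. Aldh1l2 over Aldh1l1, its cytosolic counterpart, gave 0.197 and 0.176 in HET IL-6, 0.0386 and 0.0510 in HET control, 0.0591 and 0.0582 in WT IL-6, and 0.139 and 0.127 in WT control, in the same directions. Of the exon bases of Aldh1l1, 13.4% lie within other genes. Mthfd1l over Mthfd1 was 0.720 and 0.659 in HET IL-6, 0.540 and 0.568 in HET control, 0.615 and 0.619 in WT IL-6, and 0.683 and 0.577 in WT control, and here the WT groups overlapped.

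**Figure D4:**
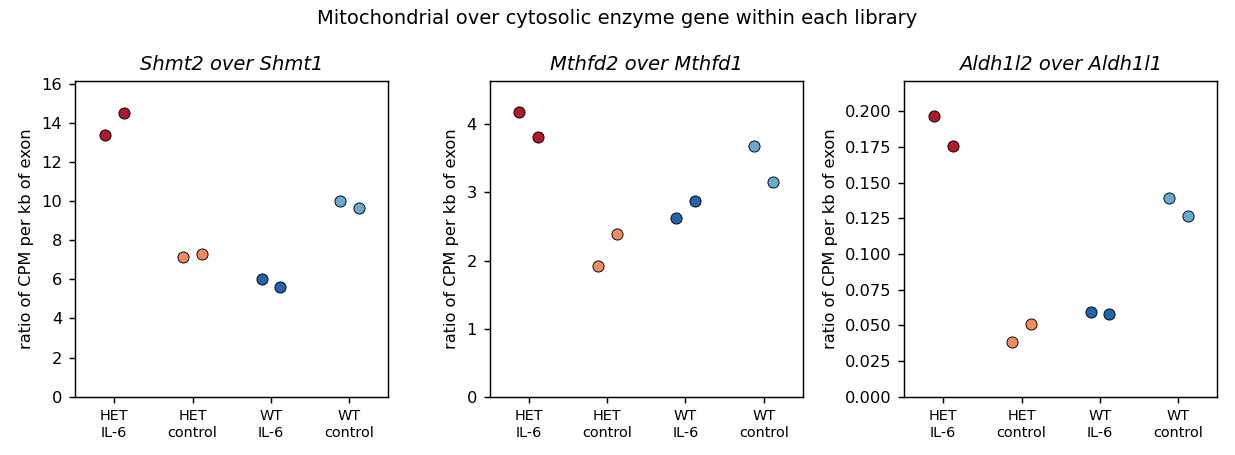
Ratio of the mitochondrial to the cytosolic enzyme gene (vertical axes from 0, both in CPM per kb of exon) in each library of the 4 groups. In all 3 pairs HET IL-6 lies above HET control and WT IL-6 below WT control, and Shmt2 over Shmt1 reaches 14.5 in HET IL-6.

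The genes whose profile over the 8 libraries was closest, by root mean square distance of centred log2 CPM among 9785 genes, differed between the enzymes. For Phgdh they were the desaturase gene Scd2 (distance 0.19), the pseudokinase gene Trib3 (0.35) and the cholesterol synthesis gene Mvd (0.38). For Aldh1l2 they were Scd2 (0.20), Scd1 (0.32) and Trib3 (0.45). For Shmt2 the nearest was Slc7a5 (0.08), the large neutral amino acid transporter, followed by Mid1ip1 (0.08) and Plk3 (0.09). For Psph they were Vegfb (0.09), Tnks1bp1 (0.11) and Plk3 (0.11), and for Mthfd2 Clcn7 (0.06), Vat1 (0.07) and B3galt4 (0.07). The spread of the enzyme itself, as SD of log2 CPM over the 8 libraries, was 0.98 for Phgdh, 1.12 for Aldh1l2, 0.45 for Shmt2, 0.44 for Psph and 0.30 for Mthfd2, and 0.12 to 0.16 for the other 4, where small distances say little.

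Among 14 genes of the ATF4 pathway, 6 had a higher response in HET than in WT and 0 a lower one, where 4.52% of all tested genes were higher and 3.60% lower. The 6 were Asns, Atf5, Trib3, Sesn2, Ddit3 and Atf4. In HET IL-6 raised 8 and lowered 1 (Eif2ak2), against 8.87% of tested genes higher and 9.41% lower. In WT it raised 0 and lowered 6, against 7.91% higher and 10.4% lower. The list's median difference was 0.50 against 0.02 over all tested genes. Asns, asparagine synthetase, was at 131 and 119.9 CPM in HET IL-6, 45.3 and 58.4 CPM in HET control, 57.1 and 62.7 CPM in WT IL-6, and 104 and 88.4 CPM in WT control. Its order was HET IL-6, WT control and then the other groups, which overlapped. IL-6 raised it by 1.27 ± 0.12 in HET (edgeR adjusted p = 3.37e-06) and lowered it, at -0.68 ± 0.12 in WT (7.84e-04). Atf4 itself was at 389.9 and 380.4 CPM in HET IL-6, 302 and 314 CPM in HET control, 271 and 295 CPM in WT IL-6, and 388 and 340.1 CPM in WT control, with changes of 0.32 ± 0.08 in HET (adjusted p = 0.0164) and -0.36 ± 0.09 in WT (0.00824). The HET call of Atf4 was lost when any HET library was left out (adjusted p up to 0.167) and the WT call without number 1 of either WT group (up to 0.0735), whereas its difference of 0.68 ± 0.12 (0.00396) stayed called. Atf5 was raised in HET by 1.83 ± 0.12 and was at -0.02 ± 0.12 in WT (edgeR adjusted p = 1.52e-07 and 0.952). The count in HET was 5 of 14 with HET control number 1 left out and 5 with HET IL-6 number 2 left out, and without WT IL-6 number 1 the count in WT was 3, whereas the difference was called in at least 6 without each library in turn. ATF4 protein is known to be set largely by translation, which these libraries do not measure.

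**Figure D5:**
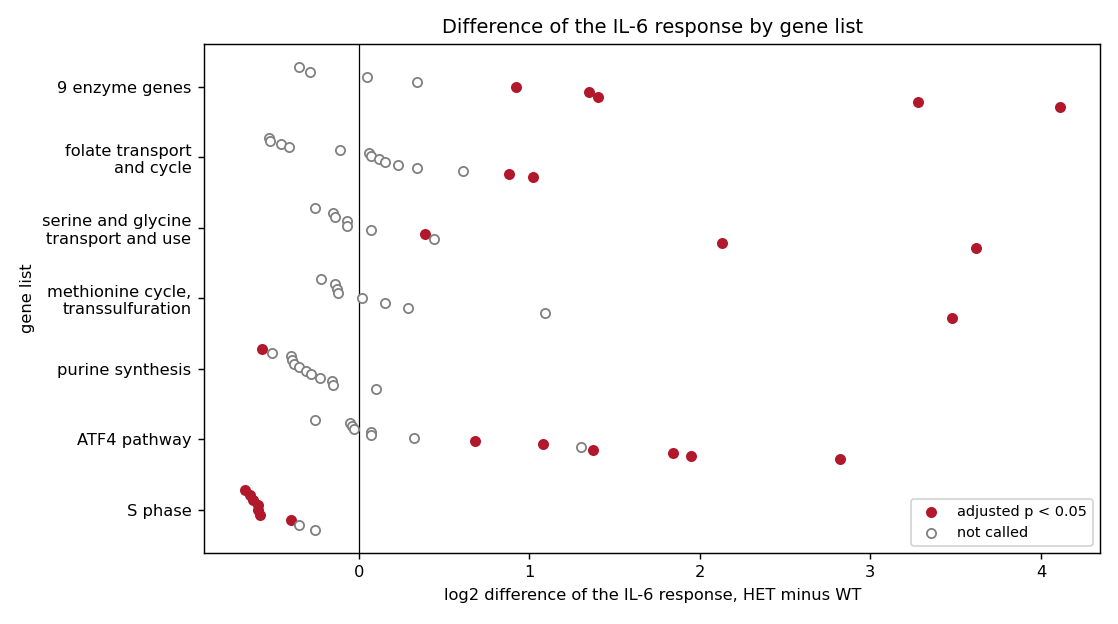
Log2 difference of the IL-6 response, HET minus WT (horizontal axis), for each tested gene of 7 lists, with filled points for an edgeR adjusted p under 0.05. The called enzyme and ATF4 pathway genes lie right of 0 and the called S phase genes left of it.

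Of 10 tested genes for transport and use of serine and glycine, the difference was higher in HET for 3 and lower for 0, where 4.52% of all tested genes were higher and 3.60% lower. Slc1a4, a neutral amino acid exchanger that carries serine, was at 41.0 and 36.6 CPM in HET IL-6, 11.3 and 14.7 CPM in HET control, 13.9 and 17.2 CPM in WT IL-6, and 25.7 and 19.5 CPM in WT control. HET IL-6 was the highest group and HET control overlapped with WT IL-6, and its difference was 2.13 ± 0.22 (edgeR adjusted p = 1.31e-04). The others were the glycine transporter gene Slc6a9 (3.62 ± 0.52), whose exons other genes overlap by 30.2%, and Slc38a2 (0.39 ± 0.11, adjusted p = 0.0427), whose call was lost when any HET library or WT IL-6 number 1 was left out (up to 0.219). In this list IL-6 raised 5 and lowered 0 in HET, where 8.87% of tested genes were higher and 9.41% lower. In WT it raised 2 and lowered 3, where 7.91% were higher and 10.4% lower. The HET count was 2 with HET IL-6 number 1 left out and 3 with HET IL-6 number 2 or either HET control left out, and the WT count was 3 with WT control number 1 left out and 1 with WT IL-6 number 1 left out.

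Of the folate transport and cycle genes, Aldh1l1, which encodes the cytosolic formyltetrahydrofolate dehydrogenase, was at 29.2 and 26.1 CPM in HET IL-6, 28 and 32.1 CPM in HET control, 15.6 and 17.7 CPM in WT IL-6, and 38.9 and 27.7 CPM in WT control. Both WT IL-6 libraries were the lowest of the 8. IL-6 lowered it in WT, at -1.01 ± 0.15 (edgeR adjusted p = 2.25e-04), and it was at -0.12 ± 0.14 in HET (0.605), a difference of 0.88 ± 0.20 (0.0169). That difference was no longer called with HET number 1 of either treatment or WT IL-6 number 1 left out (adjusted p up to 0.0982). Tyms, thymidylate synthase, was lower with IL-6 in HET (-0.34 ± 0.10, edgeR adjusted p = 0.0257), but its call was lost when any HET library was left out (up to 0.205).

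In the lists downstream of the enzymes, the called differences are set against the 8.12% called over all tested genes. Among 12 purine synthesis genes 0 were higher and 1 lower, Impdh2 at -0.57 ± 0.11 (edgeR adjusted p = 0.00796), with a list median of -0.33. The count was 0 with HET number 1 of either treatment left out, 2 with WT IL-6 number 2 left out and 5 with WT control number 2 left out. For HET against WT after IL-6, 1 purine gene was higher and 5 were lower, where 13.2% of tested genes were higher and 8.80% lower. That count of 6 was 3 with either HET control library left out, and 1 with either HET IL-6 library or WT IL-6 number 1 left out. Among 9 methionine cycle and transsulfuration genes 1 was higher, Cth, which was at most 0.539 CPM and which was not called when any library was left out. Of 3 tested glycine cleavage genes 0 were called. Myc was lowered with IL-6 in both genotypes, to 31.0 and 32.7 CPM in HET against 41.1 and 40.2 CPM in its controls, and to 22.6 and 22.9 CPM in WT against 39.9 and 35.2 CPM in its controls, and its difference of 0.38 ± 0.13 was not called (edgeR adjusted p = 0.0973). Its call in HET was lost when any HET library was left out (up to 0.146).

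S phase genes moved the other way. In HET IL-6 lowered 7 of 9 and raised 0, where 9.41% of all tested genes were lower and 8.87% higher. In WT it lowered 0 and raised 1, where 10.4% were lower and 7.91% higher. The difference was lower in 7 and higher in 0, where 3.60% were lower and 4.52% higher. In control cultures 5 were higher in HET than in WT and 0 lower, where 2.81% were higher and 2.05% lower. After IL-6, 0 were higher in HET and 3 lower, where 13.2% were higher and 8.80% lower. The last 2 counts moved with 1 library left out. The S phase genes summed to 1461 and 1487 CPM in HET IL-6 and 1976 and 1843 CPM in HET control. In WT the sum was 1791 and 1691 CPM with IL-6 and 1579.6 and 1624 CPM in control. HET IL-6 was the lowest group and WT control the next lowest, and these are the groups in which the sum of the 9 enzyme genes was highest. The count of differences was 2 of 9 with HET control number 1 left out, 4 with HET IL-6 number 1 left out and 3 with HET IL-6 number 2 left out, and for IL-6 in HET it was 3 with HET control number 1 left out and 4 with HET IL-6 number 1 left out. Over the other alternatives, these S phase counts went both lower and higher than with 1 library left out. Mast cell and basophil genes were a list of 5, of which 2 passed the filter. They summed to 3.40 and 3.40 CPM in HET IL-6 and 2.27 and 3.72 CPM in HET control. In WT the sum was 1.82 and 1.72 CPM with IL-6 and 8.52 and 5.21 CPM in control, the highest group. Most of this sum was 1 gene, Kit, at 7.77 and 4.63 CPM in WT control and at most 3.39 CPM elsewhere. Mcpt8 and Ms4a2 held at most 1 count in a library. The part of either list in the enzyme values was not tested.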

How the data were processed

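Messenger RNA was sequenced from 8 macrophage libraries, 2 in each of 4 groups, with a stranded kit for polyadenylated RNA, per the labels' protocols. The values are raw gene counts that the authors deposited. Tools listed in the submitters' processing notes are featureCounts 1.6.2, SAMtools 1.9, STAR 2.7.9a and fastp 0.12.4, with mm10 as the build. Neither the strand setting nor the annotation used in counting is given in these sources. Gene spans matched GENCODE release M21 for 97.9% of genes, and 26 symbols had been turned into dates.

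EdgeR 4.0.16 (R 4.3.3) was fitted to the deposited counts of all 8 libraries, with 1 mean per group and TMM scaling. Low counts were filtered by filterByExpr (minimum count 10). Robust quasi-likelihood F tests were used, with 4 residual degrees of freedom per gene. The spread of each gene was drawn towards a trend over all tested genes. Tests were 2-sided. P-values were adjusted by the Benjamini-Hochberg method over 13721 tested genes, and a gene was called at an adjusted p under 0.05. The steps were tested on simulated counts with the same dispersion for every gene. That test read IL-6 in HET and in WT, and the difference between the responses was not read. Values after ± are standard errors. A count of 3 corresponds to 0.0608 to 0.161 CPM, and such limits cover counting error only. No pair of replicates agreed within sampling noise. The median absolute log2 difference between the 2 libraries was 0.0892 in HET IL-6 and 0.105 in HET control. In WT it was 0.16 with IL-6 and 0.182 in control. The fit shared 1 spread per gene over the 4 groups, although the WT pairs lay further apart. Near-identical copies were sought with BLAST 2.17.0 among annotated transcripts.

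The members and the lists were chosen with earlier results of these data known. All 9 members are named in every comparison, and of each other list up to 4 genes with the smallest p, plus Asns, Trib3, Atf4, Myc and Tyms; some items of these lists are not reported here. Likeness was taken over genes that reached a mean of 5 CPM in some group, on log2 CPM with a prior count of 2. Alternatives were DESeq2 1.42.0, other scalings, no filter, GC and length offsets, replicate blocks, 2 groups only, and leaving out libraries.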

Additional observations from a re-analysis of the deposited data

Results flagged for a closer look

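The response to IL-6 differed between HET and WT, by a test of the difference itself, for 5 of the 9 enzyme genes, where 8.12% of all tested genes were called. The log2 difference, HET minus WT, was 4.11 ± 0.36 for Aldh1l2 (edgeR adjusted p = 7.50e-05) and 3.28 ± 0.44 for Phgdh (0.0106). The call of Phgdh was lost without HET control number 1 (adjusted p = 0.0625) or WT IL-6 number 1 (0.0707). It was 1.40 ± 0.18 for Psph (4.20e-04), 1.35 ± 0.13 for Shmt2 (9.13e-05) and 0.92 ± 0.14 for Mthfd2 (0.00129). For Phgdh the 2 same-numbered pairs gave log2 changes with IL-6 of 1.6 and 1.20 in HET and -2.55 and -1.10 in WT, and for Aldh1l2 2.37 and 1.46 in HET and -2.50 and -1.72 in WT. WT control numbers 1 and 2 differed by 0.83 for Phgdh and 0.62 for Aldh1l2 on the log2 scale, and the part of this gap in the differences was not tested.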

How the results depend on the processing

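With 2 libraries per group and 4 residual degrees of freedom, single libraries carry weight. Of 416 values of enzyme genes called as designed and recomputed under an alternative, 383 kept their direction and their side of the threshold and 33 were no longer called. The count of enzyme genes called was 5 for IL-6 in HET (4 to 5 with 1 library left out, 3 with both HET number 2 libraries left out), 5 for IL-6 in WT (3 to 6), 5 for HET against WT after IL-6 (4 to 6) and 5 for the difference (4 to 6). For HET against WT in control it was 2, ran from 0 to 4 with 1 library left out, and was 1 with the 2 groups fitted alone, 1 with both HET number 1 libraries left out and 1 with both HET number 2 libraries left out; the cause was not tested. Over all genes, the calls for HET against WT in control numbered 666 as designed (33 to 1304 with 1 library left out, 79 to 1078 otherwise), and those for the difference 1114 (304 to 2123, and 188 to 3121). For IL-6 in HET they numbered 2508 (1203 to 3061, and 697 to 3945), for IL-6 in WT 2515 (1577 to 3073, and 1746 to 4443), and for HET against WT after IL-6 3021 (879 to 4000, and 862 to 3588).

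The sign turned only in values that were not called. Psat1 with IL-6 in HET ran from -0.10 to 0.05 with 1 library left out (0.05 without HET control number 1) and was 0.03 without both HET number 1 libraries, and in control it ran from -0.23 to 0.02 (without WT control number 1). Mthfd1l with IL-6 in WT ran from -0.07 (without WT control number 2) to 0.18, and its difference from -0.08 (without WT control number 1) to 0.16. Mthfd1 after IL-6 was at -0.07 with the GC and length offsets, alone or with the replicate block, ran from -0.02 (without HET IL-6 number 2) to 0.11 with 1 library left out, and was -0.01 without both HET number 2 libraries.

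The labels number libraries 1 and 2 but do not say that a number marks a mouse or batch. The correlation of the number 1 minus number 2 deviations was 0.15 between control and IL-6 in HET, -0.11 in WT, and -0.06 to 0.03 for other pairs of groups. With the replicate block, 1 enzyme gene was called for HET against WT in control. With the WT numbers crossed, an alternative added after seeing the data, 6 enzyme genes and 4443 genes in all were called for IL-6 in WT, and 7 and 3121 for the difference.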
